A study of Mus musculus with 12 samples.

Results

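The genes described here are those listed in the authors' deposited comparison of livers from high-fat-diet mice given pregnenolone 16α-carbonitrile (PCN) with livers from chow-fed mice. The table held 2032 genes, each with a deposited adjusted p under 0.05, of 26031 genes with counts anywhere in the series. The rule was to take every row with values in this table, so the listed genes are the authors' calls and their PCN-to-chow differences are given as a description. Of the 2032 genes, 1112 were higher and 920 lower with PCN. Below, rose and fell mean listed in this table as higher or lower with PCN than on chow, unless another comparison is named.

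All 12 livers came from C57BL/6N mice that started their diet at 6 weeks of age and stayed on it for 15 weeks. The chow group (replicates 8, 17 and 19) ate regular chow and had no treatment. The PCN group (replicates 5, 11 and 27) ate the high-fat diet and received 50 mg/kg PCN intraperitoneally once daily for 4 days. The groups between them ate the high-fat diet and were either untreated (replicates 4, 30 and 38) or injected with vehicle, 30% DMSO in corn oil (replicates 15, 23 and 55). The carrier of the PCN injections and the sex of the mice are not stated in the labels. PCN against chow thus differs in diet, in injection and in compound at the same time, and their parts in any 1 difference cannot be told apart from these 2 groups alone. The uninjected and vehicle groups are given beside them for that reason.

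PCN, a synthetic steroid, is a strong agonist of the pregnane X receptor of rodents (PXR, encoded by Nr1i2), a nuclear receptor abundant in hepatocytes. Bound PXR pairs with the retinoid X receptor on repeated hexamer elements and turns on cytochrome P450 enzymes, conjugating enzymes and transporters that clear steroids, bile acids and drugs. The liver is also the main site of cholesterol, bile acid and acute phase protein synthesis, and it burns fatty acids under the control of PPAR alpha. Cholesterol synthesis is driven by SREBP2, a membrane-bound factor that is released when sterols in the endoplasmic reticulum run low.

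Values are read counts normalized by size factors that were recovered from the authors' deposited means, on 1 scale for the 12 libraries. A fold is the ratio of 2 group means (n = 3 each) and an error is the SD over the 3 libraries. Library values are given in the order 8, 17, 19 for chow and 5, 11, 27 for PCN, 4, 30, 38 for the uninjected high-fat diet and 15, 23, 55 for vehicle. The listed genes summed to between 7619808 and 11118792 counts per chow library and between 4581466 and 17057022 per PCN library. The smallest PCN library was replicate 11. It had the lowest PCN value for 690 of the 1112 genes that rose and the highest for 536 of the 920 that fell. Albumin, the defining product of hepatocytes, was the listed gene with the most counts in chow. In bulk tissue, fewer cells of a type and less RNA per cell cannot be told apart. The labels do not say that replicates are separate animals, so p-values measure the spread between these samples. With 3 libraries per group an exact permutation test of 1 gene cannot give p below 0.1.

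The authors' calls covered 8.10% of an estimated 25101 genes tested, 4.43% higher and 3.67% lower with PCN. Among the 13775 genes that the expression filter of the series' complete table kept, 7.64% rose and 6.55% fell, and these shares stand beside the gene list counts below as their background. The genes that rose had a median ratio of 1.91-fold, and 183 of them exceeded 4-fold and 66 exceeded 10-fold. The genes that fell had a median of 1.6-fold lower, with 57 past 4-fold and 16 past 10-fold. Because a gene had to pass a test to be listed, the smallest ratios were 1.29-fold higher and 1.28-fold lower, and the highest deposited adjusted p was 0.0499. Chow and PCN libraries did not overlap for 1083 of the genes that rose and 906 of those that fell. This separation follows largely from the listing, which rested on a test of the same libraries. Its share over all genes cannot be given, since chow and PCN counts were at hand for only some unlisted genes.

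**Figure D1:**
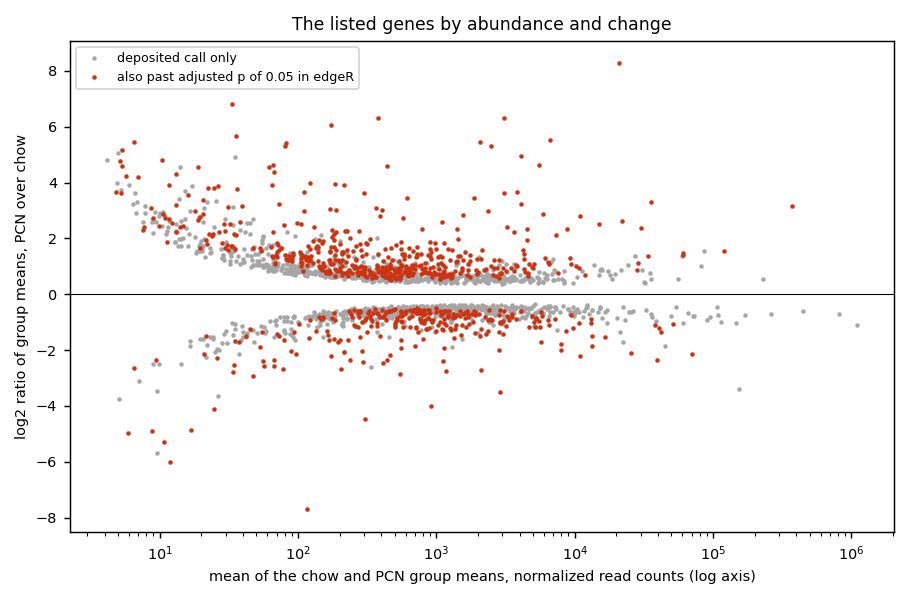
Each point is 1 listed gene. The x axis is the mean of the chow and PCN group means in normalized read counts (log axis) and the y axis the log2 ratio of the PCN mean to the chow mean; red points also passed an adjusted p of 0.05 in edgeR. Genes with a group mean of 0 are left out, and the empty band around 0 is where genes did not pass the authors' test and are not listed.

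A second test of the listed counts with edgeR, adjusted over the 25101 genes, passed 776 genes (3.09%), 490 higher and 286 lower. It used the same chow and PCN libraries as the listing. Its passes and adjusted p-values for PCN against chow, here and below, are therefore not independent support. That 2030 of the listed genes had an unadjusted p under 0.05 follows from how they were listed. Without chow replicate 8, 17 or 19 it passed 155, 141 and 174 genes, and without PCN replicate 5 or 27 it passed 146 and 202. Without PCN replicate 11 it passed 717. With TMM factors computed on the listed genes it passed 404 higher and 560 lower genes, since these factors move every log2 ratio by -0.107. That 0 listed genes changed direction was fixed in advance, since every listed ratio, of at least 1.28-fold, exceeded this shift.

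Protein-coding genes made up 94.4% of the genes that rose and 93.9% of those that fell, against 88.3% of the 13775 kept genes. Long noncoding RNAs made up 3.87% and 3.7%, against 8.28%. Pseudogenes made up 1.62% and 1.09%, against 2.41%. The remaining annotated classes made up 0.09% of the genes that rose and 1.2% of those that fell. Their share of the kept genes is not given here, so these shares have no background beside them. Of the 12 listed genes in these remaining classes, 11 fell. They included Rn7sk, the 7SK RNA that holds back transcription elongation (-0.70 in the authors' deposited log2 change), Rn7s1 and Rn7s2, the RNA of the signal recognition particle (-0.59 and -1.04), and the spliceosomal RNA Rnu1a1 (-1.24). The mitochondrial ribosomal RNA mt-Rnr2, the listed gene with the highest chow mean after albumin, was also lower (-0.69). These RNAs were named after their values were seen, and how far library preparation or RNA quality bears on them was not tested.

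The genes with the largest deposited changes were led by enzymes of detoxification among those that rose. Gstm3, a glutathione transferase that conjugates electrophiles, had 184, 72.7 and 147 normalized counts in chow and 50521, 14541 and 60665 with PCN. All 3 PCN libraries were far above chow, with replicate 11 the lowest, and the ratio was 312-fold (edgeR adjusted p = 0.00546). Gstm3 spans positions 107963696 to 107969283 of chromosome 3 (GRCm38). Cyp2c55, a cytochrome P450 known to respond to PXR, had 80.5, 65.1 and 85.1 in chow and 8543, 2072 and 7593 with PCN, a 78.9-fold ratio (edgeR adjusted p = 0.00552). In the untreated high-fat-diet libraries Cyp2c55 was at 41.2, 31 and 37.7 and with vehicle at 12.3, 20.8 and 11.2, so that all 6 libraries without PCN on the high-fat diet lay below all chow libraries. Gsta1, another glutathione transferase, rose 79.8-fold, from 9.32 ± 3.98 to 744 ± 436. Its uninjected libraries, at 38.7, 34.2 and 133, lay above all chow and below all PCN libraries, and the authors' deposited table called it between high-fat diet and chow (adjusted p = 0.000297).

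Gm3776, a protein-coding gene at 78257129 to 78269166 of chromosome 9, rose 43.2-fold (67-fold without chow replicate 17). The pseudogenes Gstm2-ps1 and Gm8834 rose 12.4-fold and 10.9-fold. Reads of glutathione transferase paralogs and pseudogenes can map to more than 1 copy, so the split of counts among these genes is uncertain. The sulfotransferase Sult2a7 rose 15.3-fold, and Psat1, an enzyme of serine synthesis, rose 24.5-fold from 5.18 ± 2.2 to 127 ± 71.4. Ifi27l2b, of an interferon-induced family, had 40.7, 19.1 and 21 in chow and 468, 283 and 456 with PCN (14.9-fold). It was already at 418, 306 and 562 in the uninjected high-fat-diet libraries, which overlapped the PCN libraries.

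Among the genes that fell most, Serpina4-ps1, a serpin pseudogene, had 140.3, 443 and 108 in chow and 1.6, 1.7 and 0 with PCN. Its ratio was 208-fold lower, and 112-fold lower without chow replicate 17. The uninjected libraries spanned 10.9, 85.6 and 2.2 and the vehicle libraries 170.1, 13.9 and 103, so this gene varied widely without PCN. Serpina12, which encodes the secreted serpin vaspin, went from 481, 567 and 706 to 13.6, 50.5 and 14.6 (22.3-fold lower; 41.5-fold lower without PCN replicate 11). Its means were 385 ± 115 uninjected and 106 ± 83.2 with vehicle. Slc30a10, a manganese exporter, was 7.29-fold lower, at 960.3 ± 158 in chow and 132 ± 62 with PCN. Slc30a10 was already at 422.5 ± 136.6 uninjected and 186.9 ± 59.4 with vehicle. Hectd2os, a long noncoding RNA, was 16.1-fold lower and 28.9-fold lower without PCN replicate 11, with means of 907 ± 481 uninjected and 370 ± 54.4 with vehicle. Whether the authors counted by strand is not given in the sources used here, so its reads and those of an overlapping gene on the other strand cannot be told apart. Srgap3, which encodes a GTPase-activating protein, had 129, 112 and 164 in chow and 9.8, 26.9 and 27 with PCN, and was already at 13.9, 13.9 and 13.3 without injection. Omd and Lamb3, which encode matrix proteins, were 5.96-fold and 5.07-fold lower.

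**Figure D2:**
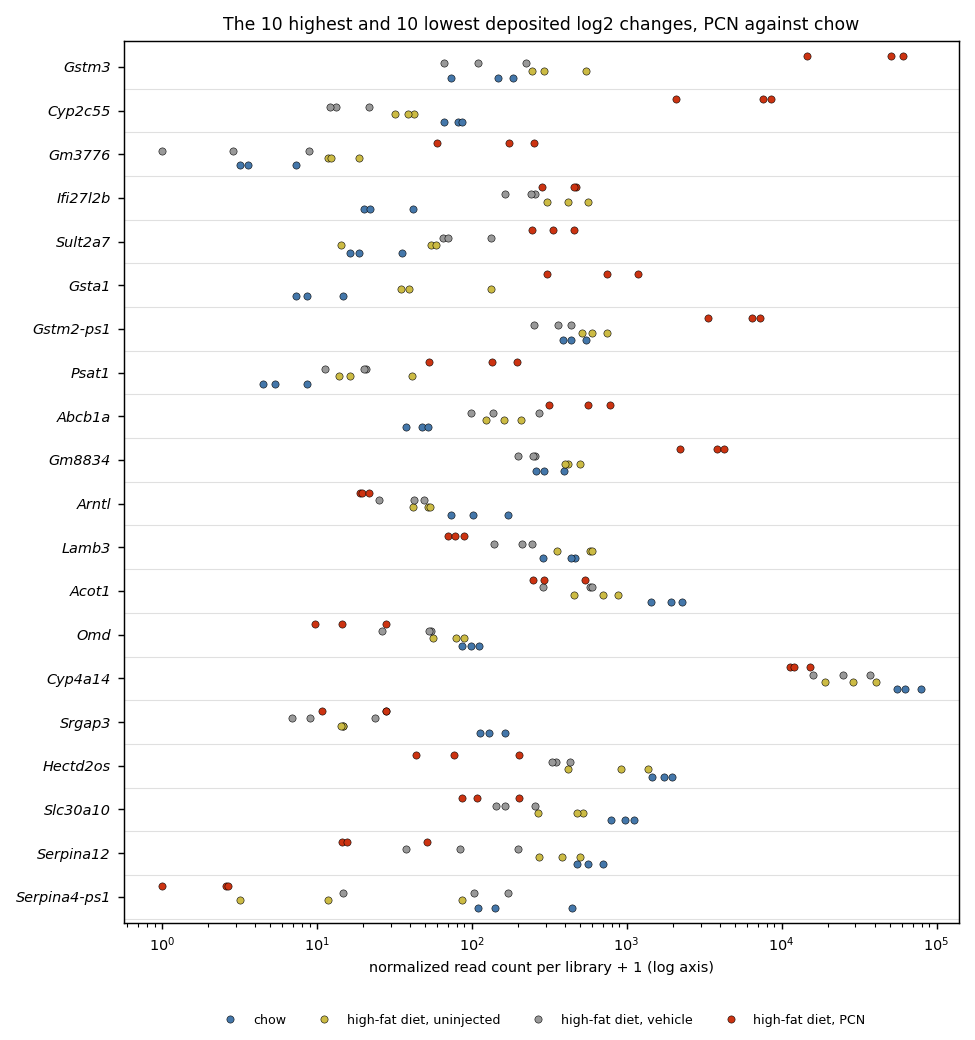
Each point is 1 library, at its normalized read count plus 1 (x axis, log scale), for the 10 genes with the highest and the 10 with the lowest deposited log2 change among those with a deposited mean of at least 50. Gstm3 and Cyp2c55 are far higher in the PCN libraries than in all others, whereas Ifi27l2b and Srgap3 differ from chow in all 3 high-fat-diet groups; Gsta1 has no vehicle points, since its vehicle counts were not used here.

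Of 40 measured phase I enzymes of the PXR and CAR response, which oxidise or hydrolyse foreign compounds, 23 rose and 3 fell. The filter kept 38 of the 40, with 21 of the 23 that rose, and the remaining genes enter the count through their listing. In edgeR 15 of the 26 listed genes passed. Cyp3a11, the main PCN-inducible P450 of mouse liver, had 64838, 85297 and 73572 in chow, 23754, 11174 and 29631 on the uninjected high-fat diet, 5786, 21636 and 3844 with vehicle and 903837, 353941 and 747068 with PCN. The uninjected and vehicle libraries all lay below chow and the PCN libraries all above, and the 8.96-fold ratio to chow compares with 31.1-fold against the uninjected and 64.1-fold against the vehicle group. The PCN-to-chow change passed edgeR (adjusted p = 0.0115). Cyp3a44, of the same family, followed the same order of groups, at 102 ± 7.1 in chow, 28.5 ± 8.42 uninjected, 17.8 ± 12.9 with vehicle and 1131 ± 452 with PCN (11.1-fold). Reads of Cyp3a paralogs can also be shared between copies.

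Ces2a, a carboxylesterase of drug and lipid esters, had 5357, 7172 and 7306 in chow and 79114, 43266 and 71862 with PCN, without overlap (9.79-fold; edgeR adjusted p = 0.00546). Cyp2a5, which oxidises coumarin and nicotine, rose 6.2-fold from 6126 ± 435 to 37983 ± 13605, and its vehicle mean of 12834 ± 4331 lay between. PCN replicate 11 gave the lowest PCN value for 21 of the 23 phase I genes that rose. The 3 that fell were Ces1e, Ces2e and Cyp2c67, named after their values were seen. Cyp2b10, the P450 used as a marker of CAR, and Nr1i2, which encodes PXR itself, were not listed, and their PCN levels are not analysed here. Nr1i2 was at 1522 ± 176.8 in chow, 1986 ± 106.1 uninjected and 2221 ± 234.7 with vehicle. Nr1i3, which encodes CAR, rose 1.65-fold, from 3211, 3866 and 3365 in chow to 5384, 5174 and 6657 with PCN, and vehicle libraries were at 6302, 4673 and 5248, overlapping PCN (edgeR adjusted p = 0.0511).

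Of 46 measured phase II enzymes, which attach glutathione, sulfate or glucuronic acid, 25 rose and 4 fell, and 16 of the 29 passed edgeR. The filter kept 44 of the 46 and 23 of the 25, and Gsta1 is among those measured only through their listing. The genes that rose had a median ratio of 2.41-fold. Gstm1, an abundant glutathione transferase, had 10609.9, 9584 and 8798 in chow and 55432, 36514 and 59966 with PCN (5.24-fold). Among transporters of drugs and bile salts, 4 of 19 rose and 2 fell. Abcb1a, the efflux pump P-glycoprotein, rose 12.4-fold from 46.8, 51 and 36.5 to 785, 315 and 563, and its uninjected libraries at 161, 123 and 206 already lay above chow. Slco1a4, which takes up organic anions, rose 4.4-fold. Of 22 NRF2 and pentose phosphate genes, which answer oxidative stress and supply NADPH, 9 rose and 2 fell. The filter kept 20 of them, with 8 of the 9. Nqo1, a quinone reductase, rose 2.97-fold from 113 ± 23.3 to 336 ± 133, with the uninjected mean at 273 ± 48.4. Akr1b7, an aldo-keto reductase, rose from 6.1, 1.3 and 4.4 to 192, 47.2 and 229 and counts as measured only because it was listed. Fth1, the ferritin heavy chain, rose 1.64-fold.

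Cholesterol synthesis was the list with the largest share of genes that rose among the 31 lists examined: 25 of 29 measured genes rose and 1 fell, and 21 passed edgeR. The genes that rose ranged from 1.42-fold to 8.09-fold with a median of 3.88-fold. Dhcr7, which makes the last step to cholesterol, had 317, 259 and 355 in chow and 1793, 1812 and 2048 with PCN (6.07-fold; edgeR adjusted p = 0.00372).

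Fdps, which makes farnesyl diphosphate, showed the highest ratio in the list (8.09-fold), from 35.5, 37 and 50.8 in chow to 338, 263 and 396 with PCN. Vehicle replicate 55 was at 334, within the PCN range, while vehicle replicates 15 and 23 were at 69 and 23.8. Msmo1, a sterol demethylase, rose 7.31-fold and Mvk, the mevalonate kinase, 6.72-fold. The 1 gene that fell was Mylip, which encodes a ubiquitin ligase of lipoprotein metabolism, from 300.4, 277 and 385 to 225, 160 and 128 (1.87-fold lower); it was named after its values were seen.

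**Figure D3:**
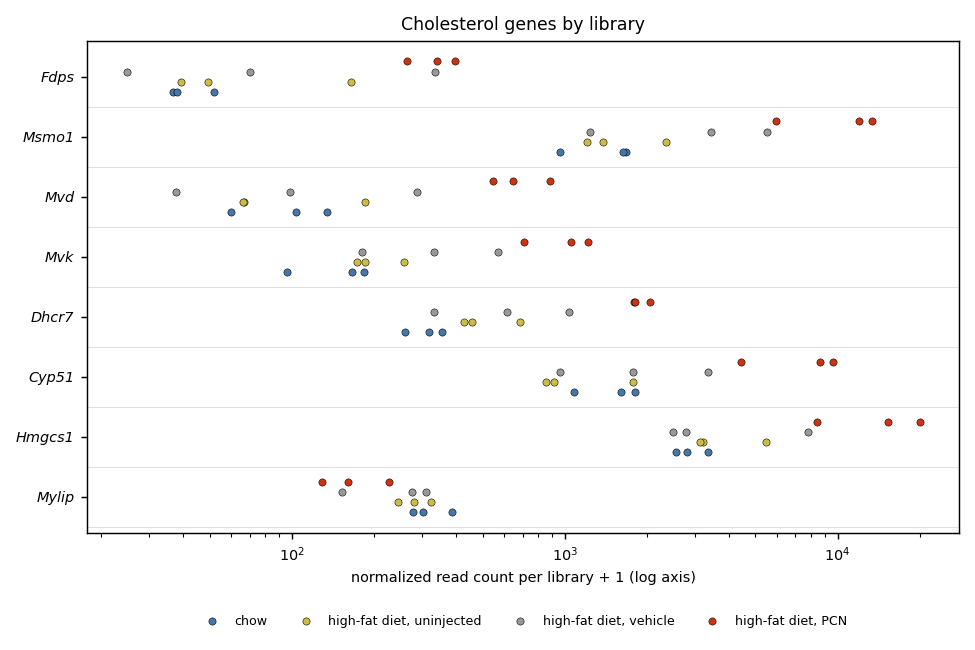
Each point is 1 library, at its normalized read count plus 1 (x axis, log scale), for 8 cholesterol genes in order of their PCN-to-chow ratio. The 7 genes above Mylip have all PCN libraries above all chow libraries, and the vehicle libraries spread widely, most of all for Fdps. Mylip runs the other way.

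The promoters of these genes were searched because all listed members but Mylip rose together. RefSeq windows of 300 bases on GRCm38.p6, from 250 bases before to 50 after each start, were at hand for 18 of the 26 listed cholesterol genes. CCAAT, the motif of the factor NF-Y, stood on either strand in 17 of the 18 genes, against 41.1% of the 27025 genes with a window. The 17 include Mylip, which fell. Other lists searched held CCAAT in 7 of 8 listed clock genes, 6 of 10 NRF2, 14 of 26 phase II, 10 of 24 phase I and 3 of 7 PPAR alpha genes. Among all listed genes with a window it stood in 45% of those that rose and 44.6% of those that fell. TCACNCCAC, a sterol regulatory element, stood in 1 of the 18 (Hmgcs1) and in 1.44% of all genes. It also stood in 2 of 24 phase I, 1 of 26 phase II, 1 of 10 NRF2, 1 of 7 PPAR alpha and 0 of 8 clock genes. The windows of Hmgcs1, Mvd and Cyp51 are shown with CCAAT (or ATTGG, its reverse complement) in capitals, and in Hmgcs1 also TCACCCCAC.

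Hmgcs1 (chr13:119690101-119690400, + strand): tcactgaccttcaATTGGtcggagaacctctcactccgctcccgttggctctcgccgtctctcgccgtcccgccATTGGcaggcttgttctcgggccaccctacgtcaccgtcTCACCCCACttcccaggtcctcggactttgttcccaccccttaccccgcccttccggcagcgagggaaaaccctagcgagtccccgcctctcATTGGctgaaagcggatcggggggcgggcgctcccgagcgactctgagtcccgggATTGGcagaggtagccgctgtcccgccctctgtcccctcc

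Mvd (chr8:122443373-122443672, - strand): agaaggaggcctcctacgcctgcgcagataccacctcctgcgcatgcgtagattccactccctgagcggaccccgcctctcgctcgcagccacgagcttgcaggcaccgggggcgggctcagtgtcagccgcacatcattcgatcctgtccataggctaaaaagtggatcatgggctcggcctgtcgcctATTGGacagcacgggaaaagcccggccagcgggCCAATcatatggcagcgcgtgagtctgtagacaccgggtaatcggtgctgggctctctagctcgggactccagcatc

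Cyp51 (chr5:4104648-4104947, - strand): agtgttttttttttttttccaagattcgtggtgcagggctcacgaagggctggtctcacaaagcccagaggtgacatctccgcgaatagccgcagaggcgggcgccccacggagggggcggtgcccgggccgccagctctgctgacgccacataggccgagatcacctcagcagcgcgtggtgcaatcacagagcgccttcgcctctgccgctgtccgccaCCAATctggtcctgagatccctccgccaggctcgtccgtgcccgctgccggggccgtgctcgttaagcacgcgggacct

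Hmgcs1, an early enzyme of the pathway, rose 5.01-fold, Mvd, the decarboxylase of the same branch, 7-fold and Cyp51, the lanosterol demethylase, 5.06-fold. In all, 12 motifs were searched on both strands, and they were chosen after values were seen. The others were CACGTG, TTATGTAA, TGACNNNGC, AANTAGGTCA, AGGTCANAGGTCA, and AGNTCA repeated directly at a spacing of 3 or 4 bases, everted at 6 or 8 or inverted at 0 (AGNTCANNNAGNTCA, AGNTCANNNNAGNTCA, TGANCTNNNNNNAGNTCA, TGANCTNNNNNNNNAGNTCA and AGNTCATGANCT). AANTAGGTCA lies inside some AGNTCANNNNAGNTCA matches. Of the 24 listed phase I genes with a window, 1 held AGNTCANNNNAGNTCA, a repeat that PXR and CAR can bind, and this was Cyp3a11 (0.144% of all genes hold it); the match is in capitals.

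Cyp3a11 (chr5:145879805-145880104, - strand): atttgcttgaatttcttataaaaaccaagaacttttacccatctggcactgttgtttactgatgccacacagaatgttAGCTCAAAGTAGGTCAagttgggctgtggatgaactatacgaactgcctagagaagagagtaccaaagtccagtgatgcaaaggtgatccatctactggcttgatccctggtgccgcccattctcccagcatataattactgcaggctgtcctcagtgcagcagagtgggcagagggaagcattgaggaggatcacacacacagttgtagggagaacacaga

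A match is a run of letters and not a measured site, and windows this short leave out distal elements.

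Fatty acid synthesis genes split. Of 30 measured genes, 11 rose and 6 fell, and 8 passed edgeR. Fasn, the fatty acid synthase, rose 2.23-fold, from 3831, 4255 and 4381 to 6040, 12604 and 9132, with uninjected libraries at 8941, 6196 and 12538 and vehicle libraries at 4510, 3410 and 4484. The uninjected libraries overlapped PCN and the vehicle libraries overlapped chow. Srebf1, which encodes the lipogenic factor SREBP1, rose 2.53-fold to 2889 ± 1467 and was already at 3245 ± 698 uninjected and 3891 ± 434 with vehicle, against 1142 ± 76.9 in chow. Acly, which makes cytosolic acetyl-CoA, rose 1.7-fold. Scd1, the desaturase that makes oleic acid, fell: chow libraries were at 347588, 183724 and 310538, uninjected libraries at 210336, 159872 and 198635, vehicle at 2850, 12655 and 23760.1 and PCN at 5464, 60907 and 14775. Every injected library was below every uninjected one. The PCN-to-chow ratio of Scd1 was 10.4-fold lower, and 27.7-fold lower without PCN replicate 11. Elovl5, an elongase of polyunsaturated fatty acids, was likewise low in both injected groups, at 17879 ± 1853 in chow, 16016 ± 3266 uninjected, 3921 ± 998 with vehicle and 3866 ± 1409 with PCN (4.62-fold lower; edgeR adjusted p = 0.00873). Elovl2, a related elongase, fell 2.29-fold.

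Of 26 lipid droplet and lipid uptake genes 4 rose and 6 fell. Plin3, a droplet coat protein, rose 2.1-fold and Vldlr, a lipoprotein receptor, 2.83-fold. Fabp2, which carries fatty acids in the cytosol, was 2.45-fold lower. Cfd, which encodes the serine protease adipsin, had 101.3, 35.7 and 8.8 in chow and 3.8, 6.7 and 1 with PCN, and 359.8, 307 and 164 in the uninjected libraries. Its PCN-to-chow ratio was 12.6-fold lower, 5.76-fold lower without chow replicate 8 and 20-fold lower without PCN replicate 11, and it did not pass edgeR (adjusted p = 0.0848). Cidea and Cidec, droplet fusion proteins that are listed for other comparisons of the series, were not listed between PCN and chow. Cidea was at 4.91 ± 5.51 in chow, 144 ± 69.2 uninjected, 34 ± 23 with vehicle and 1.27 ± 0.358 with PCN. In the same order Cidec was at 314 ± 174, 2274 ± 1065, 353.5 ± 195.2 and 168.5 ± 40.3, so its vehicle mean was already near chow.

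Of 40 genes of PPAR alpha and fatty acid oxidation, 13 fell and 0 rose, and 7 passed edgeR. Cyp4a14, a fatty acid omega-hydroxylase, had 62301, 79891 and 55847 in chow, 40772, 28815 and 19126 uninjected, 25029, 37064 and 16076 with vehicle and 11366, 15363 and 12104 with PCN. PCN libraries were the lowest and the ratio to chow was 5.1-fold lower (edgeR adjusted p = 0.00599). Its relative Cyp4a10 fell 4.35-fold, Acot1, an acyl-CoA thioesterase, 5.24-fold and Ehhadh, a peroxisomal oxidation enzyme, 3.62-fold. For each of these 4 genes the uninjected mean was also below chow: 15444 ± 5892 against 41373 ± 6583 for Cyp4a10, for example.

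Genes of glucose, amino acid, lipoprotein and bile acid metabolism had more members that fell than rose. Of 36 glucose and insulin signalling genes 2 rose and 9 fell. Pck1, which controls gluconeogenesis, had 96488, 47004 and 69367 in chow and 20520.4, 29172 and 9145 with PCN (3.62-fold lower; edgeR adjusted p = 0.0696). Ppp1r3c, a glycogen-targeting phosphatase subunit, fell 6.59-fold, from 4489, 2886 and 3528 to 585, 834 and 236. Its vehicle replicate 55, at 673, was within the PCN range and vehicle replicates 15 and 23 were not. Of 42 amino acid and urea cycle genes 6 rose and 16 fell. Cbs, the first enzyme from homocysteine to cysteine, had 8778, 8695 and 8872 in chow and 2497, 3586 and 1956 with PCN (3.28-fold lower; edgeR adjusted p = 0.0117), and Mat1a, which makes S-adenosylmethionine, and Tdo2, which opens tryptophan breakdown, fell 2-fold and 2.13-fold.

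Of 27 lipoprotein genes 4 rose and 12 fell, and 7 of the 16 passed edgeR. Those that rose included Abcg5, part of the pump that exports sterols into bile, from 1095, 1214 and 1166 to 3186, 2653 and 2528 (2.41-fold). Apoc1, an apolipoprotein, fell 2.31-fold, and Pltp, the phospholipid transfer protein, 2.96-fold. Of 21 bile acid genes 2 rose and 7 fell. Cyp7a1, the rate-limiting enzyme, was not listed. Scp2, a peroxisomal thiolase needed for bile acid side chains, fell 2.09-fold, and Akr1d1, a steroid 5-beta-reductase, rose 2.13-fold. Hnf4a, the hepatocyte transcription factor, fell 1.56-fold, from 20847, 19682 and 19819 to 12178, 14253 and 12127 (edgeR adjusted p = 0.0683).

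More acute phase genes rose than fell. Of 40 measured genes 14 rose and 3 fell, and 10 passed edgeR. Orm2, which encodes an orosomucoid secreted in inflammation, had 126, 116 and 125 in chow and 585, 560 and 573 uninjected. Vehicle libraries were at 5983, 4977 and 10051 and PCN libraries at 8435, 682 and 5481, so PCN replicate 11 lay near the uninjected libraries and the other 2 within the vehicle range. The PCN-to-chow ratio was 39.7-fold and 25.2-fold without PCN replicate 5. Fgl1, a secreted fibrinogen-like protein, rose 6.95-fold and Orm3 23.9-fold. For Itih4, an inter-alpha-trypsin inhibitor chain, the PCN mean of 90087 ± 30332 lay between chow (32128 ± 1648) and vehicle (176224 ± 64078). Ambp, which encodes the light chain of that inhibitor, was highest with PCN, at 88511 ± 24304 against 33691 ± 1821 in chow and 55665 ± 1521 with vehicle. Saa1, serum amyloid A1, was not listed. The filter kept 39 of the 40, with all 14 that rose and 2 of the 3 that fell.

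Of 39 complement and coagulation genes 8 rose, among them C2 (2.68-fold) and C4b (1.68-fold), components of the classical pathway, and 3 fell. Of 33 interferon and chemokine genes 5 rose and 1 fell. Ccl9, a chemokine of myeloid cells, had 405, 422 and 496 in chow, 347, 399 and 297 uninjected and 1590, 1152 and 1359 with PCN (3.1-fold; edgeR adjusted p = 0.00568), and the uninjected libraries all lay below chow.

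Of 39 genes that are sex-biased in liver or depend on growth hormone, 7 rose and 14 fell. All of the 7 but Cux2 are also counted in the phase I or phase II list. Some of the 14 are on other lists too, so these counts are not separate from those above. The filter kept 35 of the 39, with 4 of the 7 that rose and 13 of the 14 that fell. Mup20 and Mup21, major urinary proteins, fell 4.02-fold and 3.75-fold. Mup20 was at 9094, 13278 and 15549.9 in chow, 6368, 7132 and 5973 uninjected and 2726, 4736 and 1974 with PCN, without overlap of any pair of these groups. Reads of the many Mup copies can be shared, so their split is uncertain. Cyp2a4, a steroid 15-alpha-hydroxylase, rose 8.24-fold, from 51.1, 37 and 22.1 to 386, 197 and 325, and was at 328, 130.4 and 490.5 uninjected.

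Of 29 nuclear receptors and partners 4 rose, among them Nr1i3 above, and 4 fell. Of 19 circadian clock genes 4 rose and 6 fell, and 7 passed edgeR. The filter kept 28 and 18 genes of these 2 lists, each without 1 gene that fell. The time of day of tissue collection is not given in the sources used here, and its part in these differences was not tested. Arntl, which encodes the activator BMAL1, had 169.7, 72.7 and 100.6 in chow and 18, 18.5 and 20.8 with PCN (5.98-fold lower; edgeR adjusted p = 0.014). Uninjected libraries at 51.6, 40.8 and 53.3 and vehicle libraries at 48.2, 41.6 and 24.4 lay between. Clock, its partner, fell 2.74-fold. Per3, a repressor of the pair, rose 3.66-fold to 873 ± 260.2 and vehicle was at 922 ± 319. Nr1d1, which encodes REV-ERB alpha, a repressor of the clock, fell 3.14-fold, from 761, 1073 and 681 to 149, 381 and 270.5, and its uninjected libraries at 262, 242 and 324 also lay below chow and overlapped PCN. Of the 8 listed clock genes with a promoter window, 1 held AANTAGGTCA, a form of the element REV-ERB alpha binds (0.259% of all genes), and this was Arntl, shown with the match in capitals.

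Arntl (chr7:113207261-113207560, + strand): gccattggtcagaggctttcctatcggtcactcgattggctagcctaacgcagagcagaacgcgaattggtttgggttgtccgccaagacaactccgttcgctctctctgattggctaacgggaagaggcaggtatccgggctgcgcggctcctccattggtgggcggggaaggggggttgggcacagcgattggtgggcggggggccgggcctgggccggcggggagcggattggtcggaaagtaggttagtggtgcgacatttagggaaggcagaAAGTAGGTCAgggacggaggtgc

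Of 64 cytosolic ribosomal protein genes 36 rose and 0 fell, by 1.35-fold to 1.76-fold. In edgeR 0 of the 36 passed (lowest adjusted p 0.0575). That all 36 had an unadjusted p under 0.05 and that a DESeq2 refit passed 24 restates the listing, since it rests on the same counts. Rpl3, a large-subunit protein, had 3391, 4026 and 4648 in chow and 7512, 7602 and 5701 with PCN (1.73-fold), and Rpl13 1.56-fold. Ribosomal protein genes have many processed pseudogenes, so some of their reads may be shared. Of 47 nuclear-encoded respiratory chain genes of the mitochondria 0 were listed. Of 36 endoplasmic reticulum genes 3 rose, of which the filter kept 2, and 5 fell. Of 34 cell cycle genes 9 rose and 2 fell. Myc, a growth-promoting transcription factor, rose 3.79-fold and Gadd45b, a stress-induced gene, 3.92-fold.

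**Figure D4:**
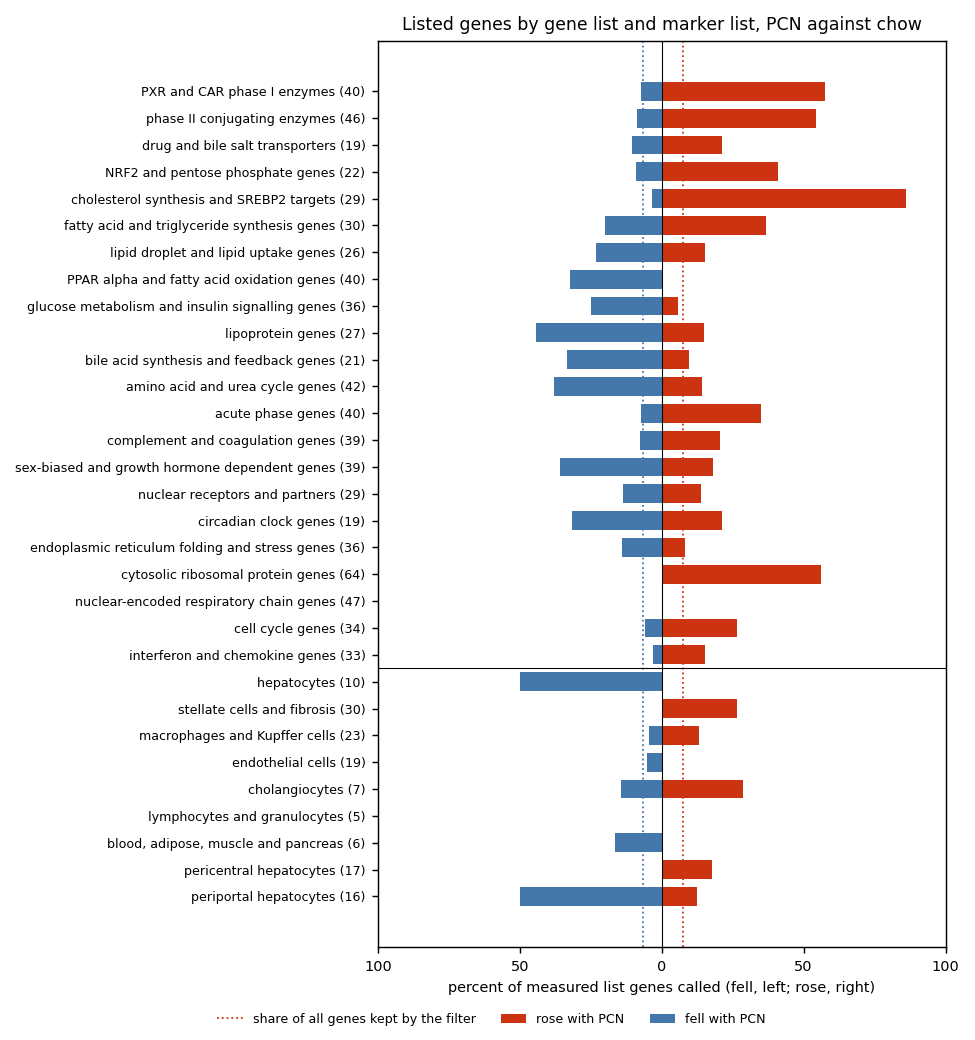
Bars give the percent of each list's measured genes (number in brackets) that rose (right, red) or fell (left, blue) with PCN against chow, with the 22 gene lists above the line and the 9 cell type and zonation marker lists below it. Dotted lines mark the 7.64% and 6.55% of all kept genes that rose and fell; cholesterol synthesis reaches 86.2% on the right, and PPAR alpha genes have bars only on the left.

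Markers of the cell types a liver piece can hold were examined beside these results. Of 10 hepatocyte markers 5 fell and 0 rose. Alb, albumin, had 1492044, 1414954 and 1586891 in chow and 727406, 920117 and 442052 with PCN (2.15-fold lower; edgeR adjusted p = 0.223). In edgeR 0 of the 5 passed, and that 5 had an unadjusted p under 0.05 and 5 passed the DESeq2 refit again restates the listing. Periportal hepatocyte markers were listed as lower for 8 and higher for 2 of 16, and pericentral markers as higher for 3 and lower for 0 of 17. In edgeR 0 of the 10 listed periportal markers passed (lowest adjusted p 0.0696; 10 at an unadjusted p under 0.05, 8 in the DESeq2 refit) and 2 of the 3 pericentral ones did. Among markers of stellate cells and fibrosis, 8 of 30 rose and 0 fell. Col1a1, a collagen of activated stellate cells, had 79.7, 38.3 and 59.7 in chow and 228, 174 and 278 with PCN (3.82-fold), below the uninjected libraries at 486, 476 and 590.4. Its vehicle libraries, at 59.5, 745.6 and 395.9, spread from chow level to above the uninjected libraries, on both sides of PCN. Col3a1 rose 3.2-fold. Timp1, a protease inhibitor of fibrosis, had 0 counts in all chow libraries and 35.5, 6.7 and 60.3 with PCN, at least 32.4-fold higher against a floor of 3 counts over the chow group.

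Of 23 macrophage markers 3 rose, among them Trem2, a receptor of lipid-associated macrophages (5.44-fold, 4.56 ± 0.873 against 24.8 ± 10.8), and 1 fell. Of 19 endothelial markers 1 fell, of 7 cholangiocyte markers 2 rose and 1 fell, and of 5 lymphocyte and granulocyte markers 0 were listed. Summed levels of whole marker lists are not given for chow and PCN, since only some unlisted genes had chow or PCN counts in the tables used here. The part of shifts in cell types in the other results was not tested.

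The groups between chow and PCN placed the lists in different orders. Over the listed cholesterol genes the median log2 ratio to chow was 0.11 on the uninjected high-fat diet, 0.51 with vehicle and 1.92 with PCN. Phase I enzymes stood at -0.07, -0.32 and 1.52. Acute phase genes stood at 0.62, 2.49 and 1.49, so that their median was higher with vehicle than with PCN. PPAR alpha genes stood at -0.34, -0.85 and -1.02, and sex-biased genes at -1.06, -0.77 and -1.09. Over all listed genes that rose the medians were 0.48, 0.49 and 0.94, and over those that fell -0.37, -0.40 and -0.68. These ratios share the chow libraries and cover listed genes, so they describe an order and carry no test. Counts were at hand for all but 6 listed genes in the uninjected and all but 14 in the vehicle libraries.

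**Figure D5:**
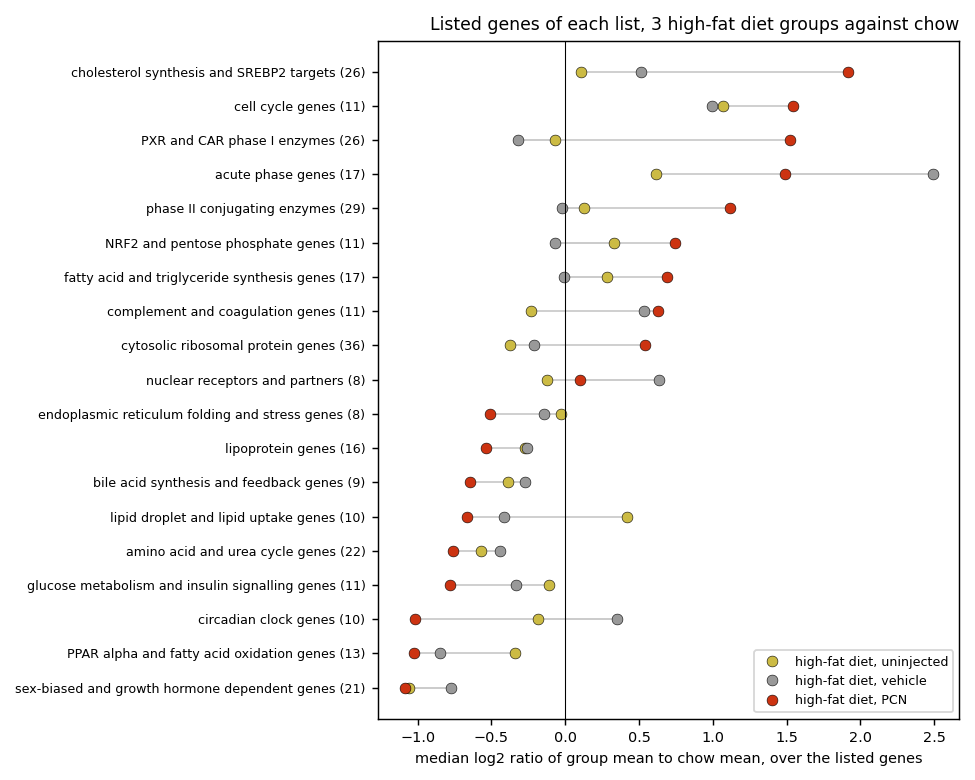
Points give, for each gene list with at least 8 listed genes (number in brackets), the median log2 ratio of the group mean to the chow mean on the uninjected high-fat diet (yellow), with vehicle (grey) and with PCN (red). Cholesterol and phase I genes have their red point far to the right of the other 2, acute phase genes their grey point, and sex-biased genes have all 3 points left of -0.7.

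The authors' deposited calls between high-fat diet and chow (4.85% of genes tested) and between PCN and vehicle (1.71%) included some of the same genes, each with its own value. Cyp3a11 had a deposited adjusted p of 3.17e-07 between high-fat diet and chow, where it was 3.46-fold lower, and 0.00019 between PCN and vehicle, where it was 64.1-fold higher. Srgap3 was called between high-fat diet and chow (9.86-fold lower, deposited adjusted p = 6.32e-23) and is not in their table of PCN against vehicle.

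Vehicle against the uninjected high-fat diet uses none of the chow or PCN libraries, so the listed genes were tested there with libraries that did not choose them. In edgeR 1 listed gene passed, Orm2, and it was the only gene that passed of the 13775 tested (0.00726%). A DESeq2 refit passed 80 listed genes. How many of all genes passed that refit is not given here, so the 80 has no background beside it. At an unadjusted p under 0.05, which 12.5% of those genes had, 10.5% of the kept genes that rose with PCN against chow were higher with vehicle and 8.27% lower, against 5.79% and 6.74% of all kept genes. Of the kept genes that fell with PCN against chow 4.66% were higher and 12.2% lower with vehicle. The authors' deposited table called 206 genes between vehicle and no injection (0.792%), of which 78 are among the listed genes, 37.9% of those calls and 3.84% of the listed genes. Among them 29 rose with PCN against chow and were higher with vehicle, 20 rose and were lower, 25 fell and were lower, and 4 fell and were higher. The median log2 difference between vehicle and no injection was 0.01 over the genes that rose, -0.02 over those that fell and 0.02 over all kept genes.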

How the data were processed

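Liver RNA of 12 libraries in 4 groups of 3 was sequenced, and groups were taken from the sample titles. The submitters' processing notes name HISAT2, HTSeq, DESeq2 and GRCm38 (mm10), without versions. The authors deposited raw read counts per gene and library in 6 comparison tables, together with a DESeq2 mean, a log2 fold change, its standard error and p-values, per the file headers. The PCN-against-chow table was used for its 2032 listed genes with values. Whether other filters were applied is not given in the sources used here.

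Size factors were recovered from the deposited means, with a largest difference of 0.0241% from a deposited mean. The number of genes the authors tested (25101) was estimated from their p-values and adjusted p-values. Counts were tested with edgeR 4.0.16 (quasi-likelihood, Benjamini-Hochberg adjustment), with prior dispersion from the complete table of vehicle against no injection (13775 genes kept by its expression filter), since a fit on listed genes alone sees only called genes. Both steps were tested on simulated data. There the unchanged genes were drawn at random and not chosen by a test, so the effect of the listing was not simulated. DESeq2 1.42.0 was an alternative, as were other scalings, filters and leaving out each library. Calling used an adjusted p of 0.05. Summed counts of listed genes per library limit precision as given with the groups.

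Genes were named by rule: the 10 highest and 10 lowest deposited log2 changes at a deposited mean of at least 50, the 4 lowest adjusted p-values of each list with 3 or more listed genes, and a set of genes always looked up. Mylip, Hmgcs1, Mvd and Cyp51, the phase I genes that fell and the noncoding RNAs were named after their values were seen. Some genes that the rule names are not reported here. The members, the 22 gene lists and 9 marker lists (897 genes) were chosen with earlier results of these data known.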

Additional observations from a re-analysis of the deposited data

How the results depend on the processing

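No paired analysis was possible because the replicate numbers differ between all groups. A stricter deposited adjusted p of 0.01 left 1315 of the 2032 listed genes. The 776 listed genes that passed edgeR became 1618 in a DESeq2 refit of the listed genes and 2030 when adjusted over the listed genes alone, and leaving out 1 library gave 141 to 717. For vehicle against the uninjected high-fat diet, the 1 listed gene that passed became 99 without the expression filter, 80 in a DESeq2 refit without independent filtering and 0 to 6 without 1 library. The DESeq2 refit was first run with independent filtering, which passed 105; the setting was changed after that value was seen, so this alternative was chosen after seeing the data. The cause of these differences was not tested. Counts over all genes are not given here for the vehicle comparison at these other settings. Ratios of 87 named genes kept their direction under TMM factors, geometric means and the removal of each library. That follows largely from the listing, since chow and PCN libraries did not overlap for most listed genes. TMM factors moved 2 of these ratios by more than the spread between replicates. In 41 of 51 list counts the edgeR call differed from the deposited call by over 1.5 times. Of the chow and PCN libraries, PCN replicate 11 held the fewest counts of listed genes (4581466), which limits the precision of its low counts. Uninjected high-fat-diet replicate 38 held fewer still (3210292, against 16854548 in replicate 4). The part of depth in the lower PCN values of replicate 11 was not tested.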
